A study of Mus musculus with 10 samples.

Results

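The genes described here are 10 extracellular modulators and receptors of the WNT, BMP and TGF-beta pathways: the secreted frizzled-related proteins Sfrp1, Sfrp2 and Sfrp4, the WNT receptor Fzd4, the BMP antagonist Chrdl1, the matrix protein Mgp, the BMP family member Gdf10, and the receptors Bmpr1a, Tgfbr2 and Tgfbr3. They were chosen by name and all 10 were among the 14623 genes of the count table. The stromal vascular fraction (SVF) is what remains of fat after collagenase digestion and removal of the floating adipocytes. It came from inguinal white fat (iWAT) of a lean mouse without Bbs8, a subunit of the BBSome that carries proteins in and out of the primary cilium (Bbs8-/-, called Bbs8 KO), and of a Bbs8+/+ mouse (Bbs8 WT), both aged 7 weeks and with no treatment named. The KO lacks the gene in the whole animal, and the SVF holds no mature adipocytes.

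Single cells were profiled by Seq-Well S3, where a cell and a barcoded bead settle in the same small well and RNA molecules are counted by a random tag (UMI). The design text names 1 mouse per genotype, so there was no replicate of a genotype and no test was possible. The labels list 5 samples per genotype, and the cells carry 5 set codes for either genotype (KO5 or KO6 and WT3 or WT4, followed by a p number), here called barcode sets. The labels also carry a p number in both genotypes, but no label matched 1 set code alone. What the numbers in the codes stand for was not stated. Per the methods of the study a sample was loaded on more than 1 array, so sets with the same number may not be independent. Ranges over barcode sets are therefore technical, unless the numbers stand for animals. All intervals in parentheses after a level, a share or a ratio are exact 95% intervals that cover counting error only.

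WNT ligands bind Frizzled receptors and stabilise beta-catenin, which keeps adipocyte precursors from differentiating, and the secreted frizzled-related proteins catch the ligands outside the cell. BMPs bind type I receptors such as Bmpr1a and promote commitment to the adipocyte lineage, while chordin-like proteins and Mgp bind BMPs and limit their reach. TGF-beta signals through Tgfbr2, with Tgfbr3 (betaglycan) as a co-receptor that presents the ligand, and drives the fibroblast programme of stromal cells. Adipocyte precursors of iWAT are divided into multipotent P1 cells, committed P2 cells and regulatory P3 cells.

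The table held 8985 cells of Bbs8 KO with 3144195 UMIs and 1929 cells of Bbs8 WT with 715989 UMIs, at a median of 251 and 278 UMIs per cell. Ttc8, the symbol of Bbs8 in the table, was without a UMI in Bbs8 KO, and a count of 0 there allows 0.954 CPM (counts per 1000000, the UMIs of a gene scaled to that total of UMIs in the same cells). It had 5 UMIs in 3 cells of Bbs8 WT, 6.98 CPM (2.27 to 16.3), all from the set WT4_p2, and a count of 0 in each of the 4 other sets allows 21.6 to 43.5 CPM. The set WT4_p2 held 768 cells and the other Bbs8 WT sets 196 to 352, so its cells weigh most in the Bbs8 WT sums, and values without it are given where it decides them. Of the barcodes, 4 recurred in 7 to 10 sets, with 37 cells in all, and no other barcode was found in more than 3 sets.

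Clusters named from marker genes gave 616 cells called P1-like, 1959 called P2-like and 323 called P3-like, together called stromal cells, of which 2132 were from Bbs8 KO and 766 from Bbs8 WT. None of the 10 genes, and none of the pathway genes described further down, was used to integrate the sets, to cluster the cells or to name a class. The classes were nevertheless drawn from the same cells, so levels by class are a description. Most markers followed the labels. Pdgfra, the pan-stromal receptor, was at 714 CPM in P1-like, 794 CPM in P2-like and 838 CPM in P3-like cells and at 16.0 CPM in T and B cell-like cells. Pi16, a P1 marker, was at 2855 CPM in P1-like cells and 198 CPM in P2-like cells, and Fgf10, a P2 marker, at 317 CPM in P2-like and 12.9 CPM in P1-like cells. F3, which defines P3 cells, was at 231 CPM in P3-like cells and 12.0 CPM in P2-like cells. No marker list for the fibrogenic progenitors that the study describes was used, so where such cells fall among these classes is not known. The leading genes of the P2-like cluster were Postn, Fgf10, Adam12, Col15a1 and Thbs1. Icam1, a P2 marker, did not follow its class, at 32.1 CPM in P2-like and 72.2 CPM in P3-like cells.

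The stromal cells of the genotypes also differed in RNA of other cell types and in their own markers. The 8 T cell markers summed to 659 CPM in stromal cells of Bbs8 KO (456 to 801 over sets, 8 of 8 markers with a UMI) and 149 CPM in Bbs8 WT (0 to 218, 7 of 8). The 8 B cell markers summed to 1261 CPM (1063 to 1436) and 279 CPM (102 to 347). In the same order of genotypes, the mitotic list was at 241 CPM (167 to 312) and 30.4 CPM (0 to 51.6), the endothelial list at 820 CPM (532 to 1027) and 468 CPM (284 to 618), and the monocyte list at 1016 and 656 CPM, while the macrophage list was at 1466 and 1370 CPM. The 8 pan-stromal markers summed to 66380 CPM in Bbs8 KO (60180 to 75100) against 84210 CPM in Bbs8 WT (76970 to 98050). They include Col1a1, Col1a2 and Col3a1, at 6227, 20800 and 30440 CPM in P1-like cells, so the sum also follows collagen levels. The study reports Col1a1 and Col3a1 as higher in P1 cells without Bbs8. The P3 list was at 1707 and 2794 CPM and the P2 list at 6736 and 10260 CPM, both lower in Bbs8 KO, while the P1 list was at 6230 and 5776 CPM. These shifts stand beside every ratio between the genotypes below, and their part in those ratios was not tested.

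Mgp and Gdf10 marked the P3-like cells. Over both genotypes Mgp, a vitamin K-dependent inhibitor of calcification that binds BMPs, was at 975 CPM (817 to 1154) in P3-like cells, 80.2 CPM (61.2 to 103) in P2-like and 74.3 CPM (47.1 to 112) in P1-like cells. Its level in P3-like cells was 12.2-fold that of P2-like cells, the next class. Gdf10, a secreted member of the BMP family also known as BMP3b, was at 729 CPM (594 to 886) in P3-like, 94.9 CPM (74.1 to 120) in P2-like and 64.6 CPM (39.5 to 99.8) in P1-like cells, 7.69-fold higher in P3-like than in P2-like cells. That gap differed between the genotypes, at 837 against 63.7 CPM in Bbs8 KO and 524 against 181 CPM in Bbs8 WT, and was 391 against 156 CPM for cells called by their own markers. A UMI of Gdf10 was found in 16.7% (12.8 to 21.2) of P3-like cells and 3.06% (2.35 to 3.93) of P2-like cells, and one of Mgp in 17.3% (13.4 to 21.9) and 2.60% (1.94 to 3.41). These shares depend on depth, and with each cell thinned to 200 UMIs they were 12.1% and 1.18% for Gdf10 and 12.1% and 1.64% for Mgp. In T and B cell-like cells, which should lack both genes, the shares were 0.120% for Gdf10 and 0.240% for Mgp. The median depth was 300 UMIs (Bbs8 KO) and 317.5 UMIs (Bbs8 WT) in P3-like cells, 267 and 230 UMIs in T cell-like cells and 274 and 239 UMIs in B cell-like cells.

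Chrdl1, a chordin-like BMP antagonist encoded on chromosome X, was also highest in P3-like cells, at 376 CPM (281 to 492), and second in P1-like cells, at 181 CPM (137 to 235). P2-like cells had 20.1 CPM (11.2 to 33.1), the lowest of the 3 subclasses. Sfrp4 was also lowest in P2-like cells, with 491 CPM (381 to 623) in P3-like, 462 CPM (389 to 544) in P1-like and 56.1 CPM (40.5 to 75.9) in P2-like cells. The levels of Sfrp4 in P3- and P1-like cells did not differ beyond counting error, with a log2 ratio of 0.09 (-0.35 to 0.52).

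Sfrp2 and Tgfbr2 were highest in P1-like cells. Sfrp2 was at 575 CPM (494 to 666) in P1-like, 217 CPM (146 to 309) in P3-like and 114 CPM (90.7 to 141) in P2-like cells, 2.65-fold higher in P1-like than in P3-like cells. A UMI of Sfrp2 was seen in 17.4% (14.5 to 20.6) of P1-like cells and in 0.120% of T and B cell-like cells, and in 9.19% and 0.0536% after thinning. Tgfbr2, the ligand-binding TGF-beta receptor, was at 762 CPM (668 to 866) in P1-like, 441 CPM (337 to 566) in P3-like and 283 CPM (247 to 324) in P2-like cells.

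Sfrp1 and Fzd4 were highest in P3-like and lowest in P1-like cells when the genotypes were summed, but Bbs8 KO gave most of the UMIs. Sfrp1 was at 90.4 CPM (60.1 to 131), 142 CPM (116 to 171) and 246 CPM (170 to 343), and Fzd4 at 74.3 CPM (47.1 to 112), 110 CPM (87.2 to 136) and 188 CPM (123 to 275). The step from P2- to P3-like cells was a log2 ratio of 0.77 (0.19 to 1.36) for Sfrp1 and 0.75 (0.08 to 1.43) for Fzd4. In Bbs8 WT alone Sfrp1 was highest in P2-like cells, at 207 CPM (148 to 280), with 105 CPM (34.1 to 245) in P3-like cells from 5 UMIs. Fzd4 in Bbs8 WT was at 96.2 CPM in P1-like, 85.7 CPM in P2-like and 126 CPM in P3-like cells, with overlapping intervals, and for cells called by their own markers it was highest in P2-like cells (178 CPM against 133 CPM in P3-like cells). The remaining receptors showed little order. Tgfbr3 was at 300 CPM (242 to 368) in P1-like and 246 CPM (170 to 343) in P3-like cells, with a log2 ratio of 0.29 (-0.29 to 0.90), and Bmpr1a was at 65.5 CPM (48.5 to 86.6) in P2-like and 65.0 CPM (29.7 to 123) in P3-like cells. With the genotypes summed, 6 of the 10 genes were highest in P3-like cells, 3 in P1-like cells and 1 in P2-like cells. In Bbs8 KO the numbers were 7, 3 and 0, and in Bbs8 WT 4, 4 and 2, with Sfrp4 then highest in P1-like cells (469 CPM, and 419.5 CPM in P3-like cells). Chrdl1, Fzd4, Gdf10 and Mgp were highest in P3-like cells in both genotypes.

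**Figure D1:**
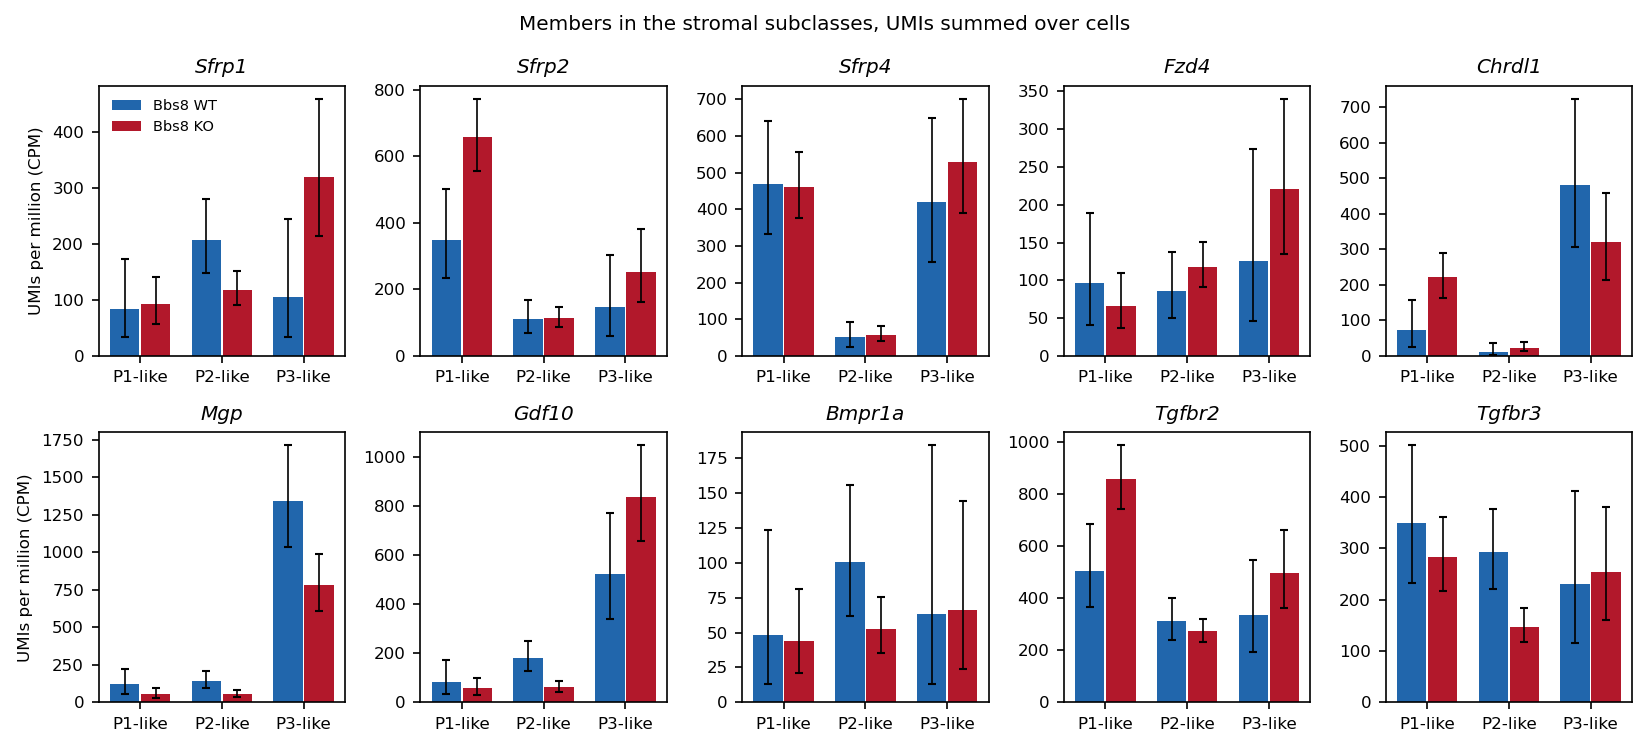
Level of each gene (y axis, CPM) in the stromal subclasses P1, P2 and P3 (x axis) of Bbs8 WT (blue) and Bbs8 KO (red), summed over cells; error bars are exact 95% Poisson intervals. Mgp and Gdf10 stand out in P3-like cells, Sfrp2 and Tgfbr2 in P1-like cells, and Chrdl1 and Sfrp4 are low in P2-like cells of both genotypes.

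Outside the stroma and with the genotypes summed, 5 of the 10 genes (Sfrp1, Sfrp2, Sfrp4, Gdf10 and Chrdl1) were at 39.8 CPM or less in every named class. The other 5 had higher levels in at least 1 class. All of the first 5 had a count of 0 in dendritic-like cells, which allows 102 CPM. A count of 0 in pericyte- and smooth muscle-like cells allows 64.95 CPM. Stromal cells held 80.1% of all UMIs of Sfrp2, 79.0% of Gdf10, 74.9% of Sfrp4, 74.6% of Chrdl1 and 71.2% of Sfrp1, and clusters without a name held another 12.0 to 17.4% of the UMIs of these 5 genes. Fzd4, the receptor that norrin and WNT ligands use in vessels, had only 32.9% of its UMIs in stromal cells. It was at 521 CPM (443 to 609) in endothelial-like and 520 CPM (333 to 773) in pericyte- and smooth muscle-like cells, against 110 CPM (91.6 to 130) in all stromal cells. Mgp was at 325 CPM (182 to 536) in pericyte- and smooth muscle-like cells, the class next to P3-like cells, and at 39.8 CPM (20.6 to 69.6) in endothelial-like cells.

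Tgfbr2 had 41.3% of its UMIs in stromal cells. It was at 446 CPM (373 to 529) in macrophage-like, 279 CPM (222 to 345) in endothelial-like and 274 CPM (241 to 311) in T and B cell-like cells. In macrophage-like cells it was at 507 CPM (422 to 605) in Bbs8 KO against 169 CPM (77.0 to 320) in Bbs8 WT, the latter from 9 UMIs. Tgfbr3 was at 226 CPM (175 to 286) in endothelial-like cells, close to the 222 CPM (196 to 251) of all stromal cells. Bmpr1a was at 89.7 CPM (41.0 to 170) in mammary epithelial-like cells, from 9 UMIs. Fzd4 in endothelial-like cells was at 559 CPM (469 to 662) in Bbs8 KO against 367 CPM (230 to 556) in Bbs8 WT.

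**Figure D2:**
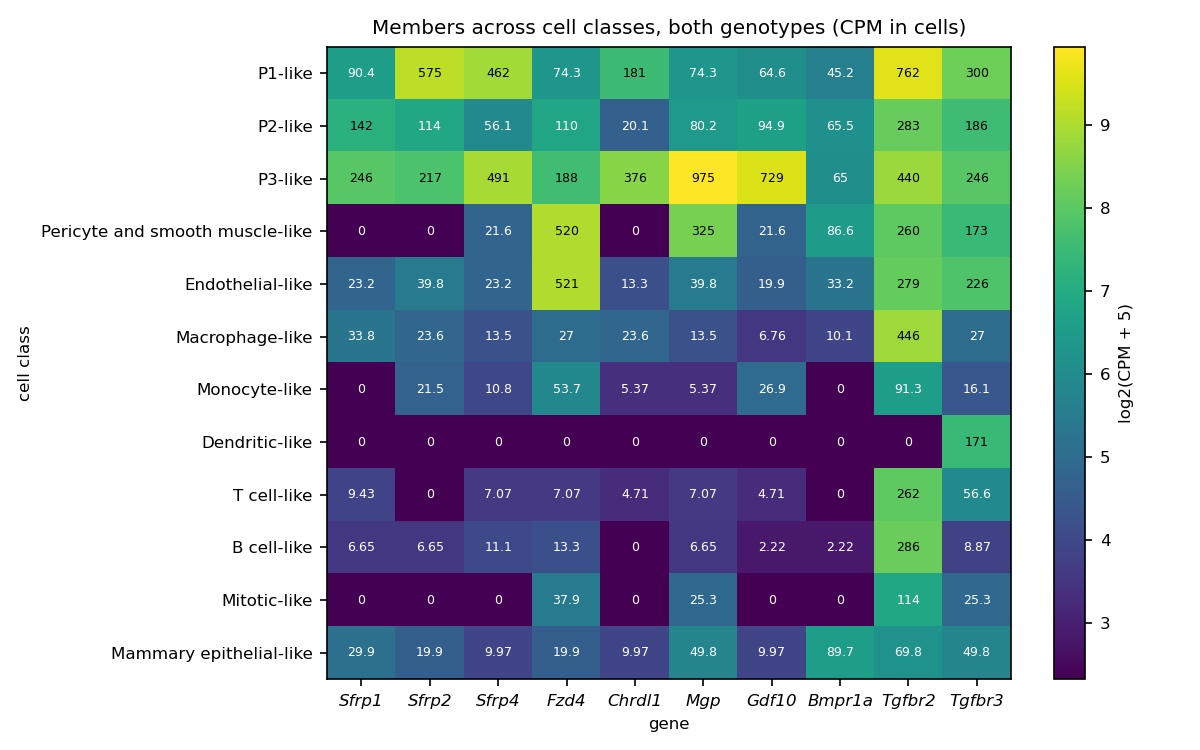
Level of each gene (x axis) in the 12 named cell classes (y axis), both genotypes summed; the number in each field is the CPM and the colour is log2(CPM + 5). The 3 stromal rows are bright for most genes, Fzd4 is brightest in pericyte- and endothelial-like cells, and Tgfbr2 is seen in nearly every class.

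Promoter sequences were at hand for 5 of the 10 genes (RefSeq, GRCm38.p6), as the 250 bases before the RefSeq start. The GENCODE start of Fzd4 lies within its window, so the annotations differ there. They are shown for 3 genes with different class patterns: Gdf10 (P3-like cells), Sfrp2 (P1-like cells) and Fzd4 (vessel cells). Capitals mark matches to the motifs searched on both strands, which were CTTTGA for TCF/LEF factors, GACCACCCA for GLI factors, GTCTAGAC for SMAD factors and GGCGCC for the GC-rich BMP-response element, with no overlap between motifs.
Gdf10, chr14:33923337-33923586, plus strand: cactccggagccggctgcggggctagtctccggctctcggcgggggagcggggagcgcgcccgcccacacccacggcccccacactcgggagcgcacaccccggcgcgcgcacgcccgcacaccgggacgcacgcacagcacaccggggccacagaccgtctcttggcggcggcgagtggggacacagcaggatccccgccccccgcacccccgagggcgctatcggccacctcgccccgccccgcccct
Sfrp2, chr3:83766071-83766320, plus strand: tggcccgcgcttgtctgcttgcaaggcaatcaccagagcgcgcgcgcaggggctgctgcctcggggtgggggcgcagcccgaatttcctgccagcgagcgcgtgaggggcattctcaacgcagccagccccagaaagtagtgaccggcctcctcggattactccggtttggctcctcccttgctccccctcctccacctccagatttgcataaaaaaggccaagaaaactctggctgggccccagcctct
Fzd4, chr7:89404116-89404365, plus strand: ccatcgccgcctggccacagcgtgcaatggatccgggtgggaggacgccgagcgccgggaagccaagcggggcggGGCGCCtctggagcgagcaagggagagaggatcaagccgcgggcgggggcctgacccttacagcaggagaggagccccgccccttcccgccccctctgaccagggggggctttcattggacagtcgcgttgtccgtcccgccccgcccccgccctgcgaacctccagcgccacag
The windows of Gdf10 and Sfrp2 held none of the 4 motifs. That of Fzd4 held GGCGCC at position -175 from the RefSeq start, and of the windows not printed that of Bmpr1a held it at -198 and that of Tgfbr2 held none of the 4. GGCGCC was found in 9.59% of all 32851 promoter windows of this length, and CTTTGA was found in 13.8%, GACCACCCA in 0.225% and GTCTAGAC in 0.167%. The G and C content was 78.8% for Gdf10, 72.8% for Fzd4 and 63.6% for Sfrp2, above the median window at 52.4%. Gdf10 lies on chromosome 14 (33923587 to 33937983 in mm10, GENCODE vM21), Sfrp2 on chromosome 3 (83766321 to 83774316) and Fzd4 on chromosome 7 (89404355 to 89413134), all on the plus strand.

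Genes with the most similar pattern were looked up by the correlation of log2(CPM + 20) across the 12 named classes, among 3658 other genes with at least 200 UMIs. The classes share libraries, and the correlations are a description. Gdf10 was most like Inmt (Pearson's r 0.97), Svep1 (0.97) and Smoc2 (0.94), and Mgp most like Cygb (0.94), Bgn (0.92) and Ecm2 (0.92). Chrdl1 followed Fbln1 (0.96), Sfrp4 (0.96) and Scara5 (0.93), so a member stood second in the list of another. Sfrp4 itself was closest to Thbs3 (0.97), Apod (0.96) and Tmeff2 (0.95). Sfrp2 followed Scara5 (0.98), Igfbp6 (0.98) and Scara3 (0.97), and Sfrp1 followed Abca8a (0.96), Ctsk (0.95) and Mmp3 (0.95). Inmt, Bgn, Fbln1 and Mmp3 belong to the P3 marker list and Igfbp6 to the P1 list. Fzd4 was closest to Adamts1 (0.96), Cpd (0.93) and the BMP target Id3 (0.92). Tgfbr2 was closest to Igfbp4 (0.90), Ugp2 (0.89) and Smarca2 (0.88), Tgfbr3 to Pam (0.92), Golim4 (0.90) and Ppfibp1 (0.90), and Bmpr1a to Amotl1 (0.95), Igfbp5 (0.94) and Nckap1 (0.94).

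RNA levels were then compared between the genotypes, with 1 mouse of each, so genotype cannot be told apart from animal. A ratio is the log2 of the Bbs8 KO level divided by the Bbs8 WT level, each with 5 CPM added, and a gene with at least 50 UMIs in a class over both genotypes is called past the fold when the ratio exceeds 1.5-fold. Over all stromal cells, Mgp, Tgfbr3 and Bmpr1a were lower in Bbs8 KO past that fold and Sfrp2 was higher. The 3 lower of 10 compare with 9.8% of the 4022 genes with at least 50 UMIs that were lower, and the 1 higher with 17.7% of genes that were higher. The barcode sets of the genotypes overlapped for all 10 genes, while 3.11% of genes had all Bbs8 KO sets below all Bbs8 WT sets and 5.17% had them above. The median ratio of the 10 genes was -0.13, beside 0.05 for the 4022 genes, with 5 genes above and 5 below 0. The fold therefore picked out 4 genes, but none of them by separate sets.

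Mgp had the largest ratio of the 10 genes over all stromal cells. Its levels in the Bbs8 KO sets were 130 CPM (KO5_p2), 96.8 CPM (KO5_p3), 180 CPM (KO6_p1), 189 CPM (KO6_p2) and 77.9 CPM (KO6_p3). In Bbs8 WT they were 412 CPM (WT3_p1), 166 CPM (WT3_p2), 271 CPM (WT3_p3), 444 CPM (WT4_p2) and 142 CPM (WT4_p3). The Bbs8 KO sets were low, but WT3_p2 and WT4_p3 lay within their range. The summed level was 133 CPM (110 to 159) in Bbs8 KO against 313 CPM (255 to 379) in Bbs8 WT, with a log2 ratio of -1.21 (-1.63 to -0.84). Of the 103 UMIs in Bbs8 WT, 59 came from WT4_p2, and without that set the ratio was -0.73 (-1.27 to -0.22). With the codes taken by number, the ratio was -1.26 for KO5 against WT3, -1.52 for KO5 against WT4, -0.90 for KO6 against WT3 and -1.16 for KO6 against WT4, below 0 in all 4. With the subclasses weighted to the mix of Bbs8 WT it was -0.93.

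Tgfbr3 was at 193 CPM, 199 CPM, 228 CPM, 161 CPM and 195 CPM in the Bbs8 KO sets, in the order given for Mgp. In the Bbs8 WT sets it was at 291 CPM, 187 CPM, 406 CPM, 294 CPM and 336 CPM, so that all but WT3_p2 were above every Bbs8 KO set. The summed level was 194 CPM (166 to 225) in Bbs8 KO against 298 CPM (242 to 363) in Bbs8 WT, with a log2 ratio of -0.61 (-0.99 to -0.25). By number the ratios were -0.49, -0.64, -0.52 and -0.67. The value lay near the fold, at -0.55 without KO6_p2, -0.56 without WT3_p3 and -0.55 without WT4_p3, and at -0.38 without integration and -0.34 for cells called by their own markers. Bmpr1a, with 72 UMIs in all, was at 51.9 CPM (37.9 to 69.5) and 82.0 CPM (54.0 to 119), with a log2 ratio of -0.61 (-1.38 to 0.09) whose interval included 0. It was -0.45 without KO5_p3, -0.53 without KO6_p1, -0.55 without WT3_p2, -0.46 without WT3_p3 and -0.52 without WT4_p2, and -0.25 without integration.

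Sfrp2 was at 346 CPM, 285 CPM, 283 CPM, 217 CPM and 228 CPM in the Bbs8 KO sets and at 339 CPM, 208 CPM, 135 CPM, 113 CPM and 194 CPM in the Bbs8 WT sets. WT3_p1 was near the highest Bbs8 KO set and the 4 other Bbs8 WT sets lay below all Bbs8 KO sets. The summed level was 271 CPM in Bbs8 KO against 176 CPM in Bbs8 WT, with a log2 ratio of 0.61 (0.20 to 1.06). It was 0.50 without KO5_p2, 0.58 without WT3_p3 and 0.30 (-0.17 to 0.81) without WT4_p2. The smallest value by number was 0.03, for KO6 against WT3, and after thinning of each cell to 200 UMIs the ratio was 0.17.

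**Figure D3:**
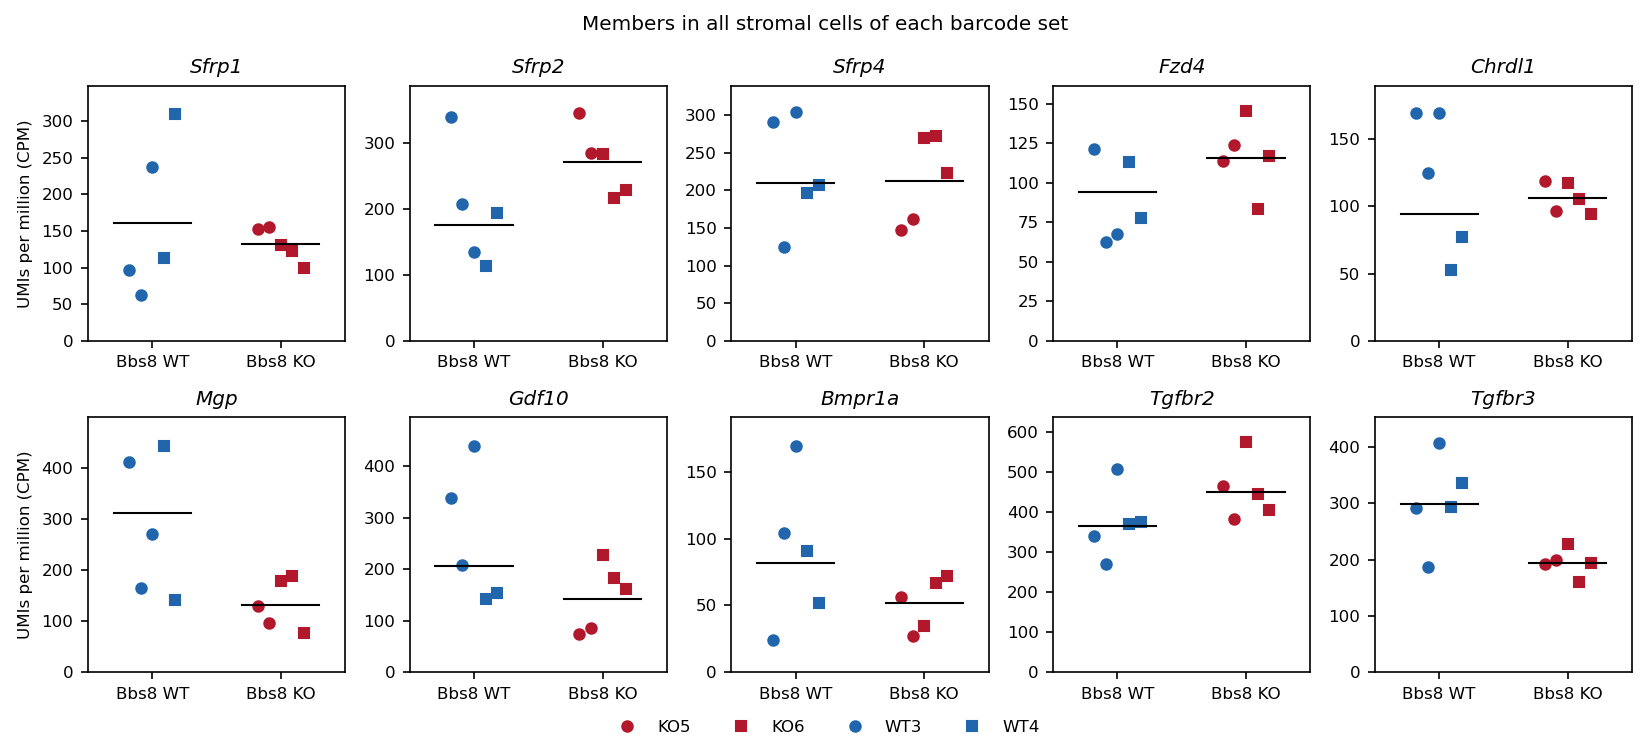
Level of each gene (y axis, CPM) in all stromal cells of the 5 barcode sets of Bbs8 WT (blue) and Bbs8 KO (red); circles are sets numbered WT3 or KO5, squares WT4 or KO6, and the line is the level of the summed UMIs. The sets of the genotypes overlap in every panel; Gdf10 is lowest in the KO5 sets and Mgp is highest in WT4_p2 and WT3_p1.

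Gdf10 differed as much within Bbs8 KO as between the genotypes. It was at 73.7 CPM and 86.0 CPM in the KO5 sets and at 228 CPM, 183 CPM and 161 CPM in the KO6 sets. In Bbs8 WT it was at 339 CPM, 208 CPM and 440 CPM in the WT3 sets and 143 CPM and 155 CPM in the WT4 sets. The KO5 sets lay below every other set, while the KO6 sets lay above the WT4 sets and reached into the range of the WT3 sets. Summed over sets the log2 ratio was -0.52 (-0.97 to -0.08), but it was -1.89 for KO5 against WT3 and 0.34 for KO6 against WT4, so the sign depended on which numbers were compared. P3-like cells made up 9.41% and 9.58% of stromal cells in the KO5 sets, 9.20 to 11.6% in the KO6 sets and 11.5 to 17.5% in the Bbs8 WT sets. Weighted to the mix of Bbs8 WT, the ratio of Gdf10 was -0.24.

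The 5 remaining genes did not pass the fold in all stromal cells with the sets summed. Sfrp1 was at 133 and 161 CPM in Bbs8 KO and Bbs8 WT, with a log2 ratio of -0.27 (-0.76 to 0.22). Sfrp4 was at 212 against 210 CPM, with a log2 ratio of 0.02 (-0.39 to 0.44), the closest to equal levels. Fzd4, which was at 521 CPM in endothelial-like cells, was at 115 and 94.1 CPM (0.28, -0.30 to 0.92), beside the higher endothelial list in Bbs8 KO, and Chrdl1 at 106 and 94.1 CPM (0.16, -0.43 to 0.81). By number Chrdl1 was at -0.47 (KO5) and -0.51 (KO6) against WT3 but past the fold against WT4, at 0.75 and 0.72. Sfrp1 ran from -0.64 to 0.38 by number. Tgfbr2 was at 449 against 364 CPM, with a log2 ratio of 0.30 (0.00 to 0.61). Scaling by TMM factors of edgeR moved the median over all genes by -0.17, with Tgfbr2 then at 0.12, and turned Sfrp4 and Chrdl1 below 0. Under that scaling 12.8% of genes were higher and 17.6% lower past the fold.

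In P2-like cells 4 of the 7 genes with at least 50 UMIs were lower past the fold in Bbs8 KO and 0 of 7 were higher, beside 14.4% lower and 18.6% higher among 2577 genes. Gdf10 was at 63.7 CPM (45.4 to 93.5 over sets) in Bbs8 KO against 181 CPM (114 to 410) in Bbs8 WT, with a log2 ratio of -1.44 (-2.22 to -0.80), and its sets did not overlap. Tgfbr3 was at 147 CPM (120 to 204) and 292 CPM (237 to 381), with a log2 ratio of -0.96 (-1.49 to -0.48), also with separate sets. These were 2 of 7 genes with separate sets and lower and 0 of 7 with separate sets and higher, beside 3.8% lower and 4.73% higher among the 2577 genes. Both ratios stayed below 0 in all 4 comparisons by number, from -2.36 to -0.69 for Gdf10 and from -1.13 to -0.85 for Tgfbr3. For cells called by their own markers Tgfbr3 was at -0.56, short of the fold, and Gdf10 at -1.98.

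Mgp in P2-like cells was at 56.4 CPM and 146 CPM, with a log2 ratio of -1.30 (-2.15 to -0.59), and at -0.78 (-1.84 to 0.26) without WT4_p2. By number it was -0.46 for KO5 against WT3, short of the fold, and -1.82 to -1.07 for the others. Sfrp1 was at 118 CPM and 207 CPM, with a log2 ratio of -0.78 (-1.39 to -0.20). That value came from WT4_p3, at 448 CPM, since the other Bbs8 WT sets were at 0 to 190 CPM and the Bbs8 KO sets at 51.0 to 204 CPM. Without WT4_p3 the ratio of Sfrp1 was -0.10 (-0.86 to 0.71), without KO6_p3 it was -0.58 (-1.20 to 0.01), and by number it ran from -1.70 to 0.93. It was -0.24 without integration and -0.10 for cells called by their own markers. The median over all 10 genes in P2-like cells was -0.49, beside 0.02 for the 2577 genes. The median of the 10 was 0.022 with the members among the integration features and 0.074 for cells called by their own markers. TMM factors moved the median of the 2577 genes by -0.15, to 14.3% of genes higher and 20.9% lower, and turned Sfrp2, at 0.05 (-0.67 to 0.82) by CPM, below 0. In the same cells the pan-stromal list was at 60890 CPM in Bbs8 KO against 84130 CPM in Bbs8 WT, the P3 list at 1073 and 1960 CPM, and the T cell list at 779 and 171 CPM.

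In P1-like cells Sfrp2, Tgfbr2 and Chrdl1 were higher in Bbs8 KO. Of the 5 genes with at least 50 UMIs there, 3 were higher past the fold and 0 lower, beside 14.2% higher and 14.1% lower among 796 genes. Since Bbs8 KO gave 226485 of the UMIs and Bbs8 WT 83141, a gene high in Bbs8 KO reached 50 UMIs more easily, and the median over all 10 genes was -0.07, beside -0.04 for the 796 genes. Sfrp2 was at 848 CPM, 920 CPM, 657 CPM, 383 CPM and 516 CPM in the Bbs8 KO sets and at 577 CPM, 316 CPM, 600.1 CPM, 220 CPM and 414 CPM in the Bbs8 WT sets. The KO5 sets were the highest of all and the KO6 sets overlapped Bbs8 WT. Its log2 ratio was 0.91 (0.33 to 1.54), 0.54 (-0.12 to 1.28) without WT4_p2, 0.12 for KO6 against WT3, and 0.14 after thinning.

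Chrdl1 in P1-like cells was at 221 CPM in Bbs8 KO, from 50 UMIs, and at 72.2 CPM in Bbs8 WT, from 6 UMIs, with a log2 ratio of 1.55 (0.39 to 3.13). Its Bbs8 KO sets ran from 101 to 314 CPM and its Bbs8 WT sets from 0 to 118 CPM, and the ratio stayed between 1.17 and 2.03 in the 4 comparisons by number. The 0 was in WT3_p3, where a count of 0 in P1-like cells allows 600.1 CPM. Tgfbr2 was at 857 CPM (650.1 to 1079 over sets) and 505 CPM (0 to 741, the 0 again in WT3_p3), with a log2 ratio of 0.76 (0.27 to 1.28), and at 1.40 (0.66 to 2.28) without WT4_p2, the highest Bbs8 WT set. By number it was 1.71 and 1.61 against WT3 but short of the fold against WT4, at 0.48 (KO5) and 0.38 (KO6), and it was 0.45 without integration. The T cell list was at 450 CPM in P1-like cells of Bbs8 KO and 132 CPM in Bbs8 WT. T and B cell-like cells had 274 CPM of Tgfbr2, less than P1-like cells of either genotype (857 and 505 CPM). The part of such RNA in the ratio was not tested.

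In P3-like cells the counts were small. Of the 5 genes with at least 50 UMIs, 1 was higher past the fold and 2 were lower, beside 17% higher and 12.2% lower among 271 genes, and the median over all 10 genes was 0.44, beside -0.04. By number the median of the 10 was -0.19 and -0.04 for KO5 against WT3 and WT4, and 0.36 and 0.71 for KO6. With size factors of DESeq2, 14% of genes were higher and 15.5% lower, and with TMM factors 18.8% and 9.23%. Gdf10 was at 837 CPM in Bbs8 KO against 524 CPM in Bbs8 WT, with a log2 ratio of 0.67 (0.01 to 1.39), the opposite sign to P2-like cells. Its sets were at 266 CPM and 517 CPM for KO5, 1644 CPM, 1046 CPM and 742 CPM for KO6, and 351 to 736 CPM for Bbs8 WT, so the rise came from the KO6 sets. The ratio was -0.61 for KO5 against WT3, -0.16 for KO5 against WT4, 0.81 for KO6 against WT3 and 1.26 for KO6 against WT4. Without KO6_p1, KO6_p2 or WT4_p3 it was 0.39, 0.53 and 0.53.

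Mgp in P3-like cells was at 782 CPM in Bbs8 KO against 1342 CPM in Bbs8 WT, with a log2 ratio of -0.78 (-1.29 to -0.27). The set WT4_p2 had 38 of the 64 UMIs of Bbs8 WT, at 2225 CPM, and without it the ratio was -0.12 (-0.79 to 0.59). It was also short of the fold for KO6 against WT3 (-0.26), without integration (-0.32) and for cells called by their own markers (-0.49). Chrdl1 was at 319 CPM and 482 CPM, with a log2 ratio of -0.59 (-1.44 to 0.26), which lay at the fold, fell short of it without any of KO5_p2, KO5_p3, KO6_p3 or the 3 WT3 sets (-0.54 to -0.40), and was -1.02 without WT4_p2. Its sign depended on the numbers compared, at -1.65 for KO5 against WT3, 0.088 for KO5 against WT4, -1.22 for KO6 against WT3 and 0.52 for KO6 against WT4. Sfrp1, with 34 UMIs and so below the minimum, was at 319 CPM (66.4 to 568 over sets) and 105 CPM (0 to 792).

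**Figure D4:**
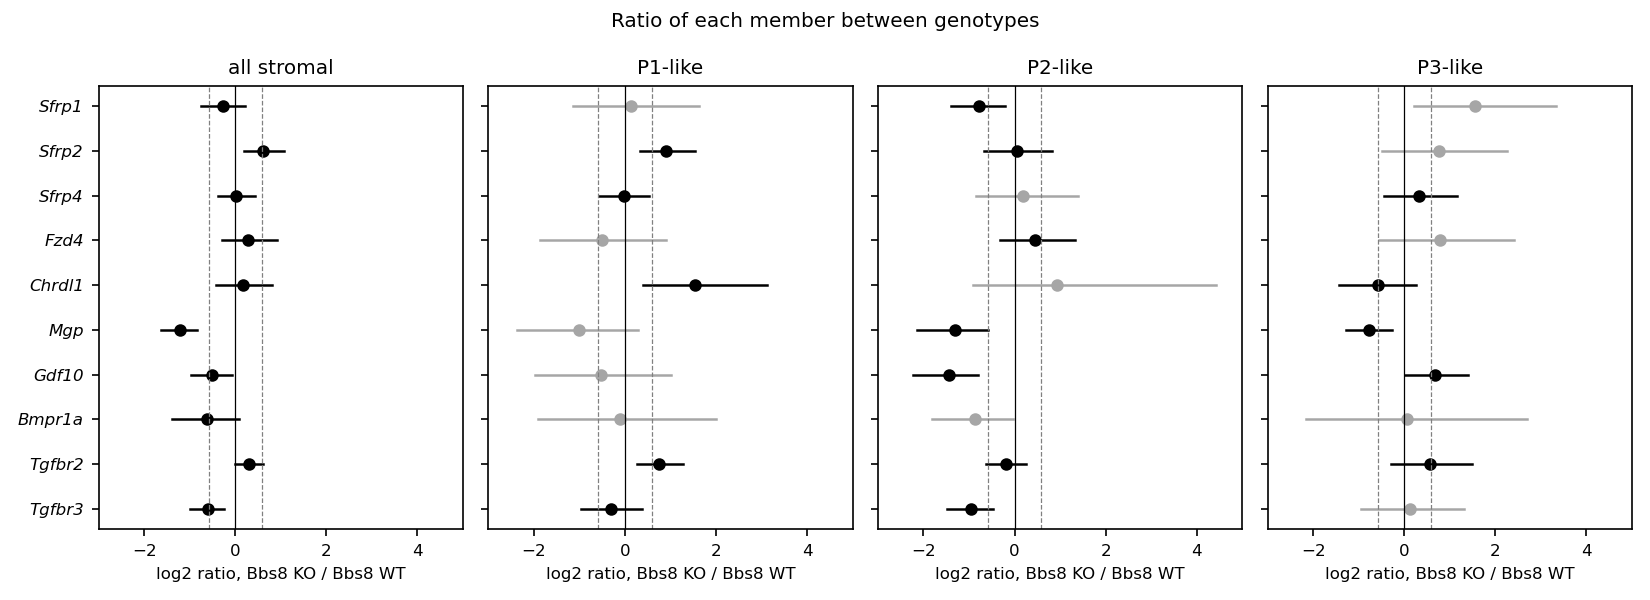
Log2 ratio of Bbs8 KO over Bbs8 WT (x axis) for each gene (y axis) in all stromal cells and the 3 subclasses; points are ratios with 5 CPM added, bars exact 95% intervals of the plain ratio (counting error only), grey marks genes with fewer than 50 UMIs in the class, and dashed lines mark 1.5-fold. Gdf10 lies at -1.44 in P2-like and 0.67 in P3-like cells, and Chrdl1 at 1.55 in P1-like and -0.59 in P3-like cells.

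Other genes of the same pathways were listed by role, 116 in all, of which 96 were in the table and 39 had at least 50 UMIs in stromal cells. Of these 39, 8 were higher in Bbs8 KO past the fold, 7 were lower and 24 were neither, with a median of -0.06, beside 17.7% higher and 9.8% lower among all 4022 genes with that many UMIs. Bbs8 KO held 867038 of the stromal UMIs and Bbs8 WT 329283, so that a gene high in Bbs8 KO reached 50 UMIs more easily than one that was low there. Besides the secreted frizzled-related proteins, 2 WNT antagonists had 50 UMIs or more and both were lower, Dkk3 at -1.15 (-2.03 to -0.48; 36.9 and 88.1 CPM) and Kremen1, the Dickkopf receptor, at -1.26 (-2.26 to -0.54). Of 5 BMP antagonists 2 were lower, Nbl1 at -0.72 (-1.10 to -0.36) and Bmper at -0.61 (-1.17 to -0.10), and 0 were higher. The barcode sets of the genotypes overlapped for each of these 4 antagonists. Among antagonists below 50 UMIs, Dkk2, named after its values were seen, had 24 UMIs in Bbs8 KO (27.7 CPM) and 0 in Bbs8 WT, where that count allows 9.11 CPM. All its Bbs8 KO sets lay above its Bbs8 WT sets, where a count of 0 allows 22.6 to 101.5 CPM. With Sfrp1 (-0.27), Sfrp2 (0.61) and Sfrp4 (0.02) counted in, 2 of 5 WNT antagonists with 50 UMIs or more were lower and 1 was higher. The 5 BMP antagonists leave out the members Chrdl1 (0.16) and the BMP-binding Mgp (-1.21). Fstl1, the most abundant BMP antagonist, was at 3440 CPM in Bbs8 KO against 4072 CPM in Bbs8 WT, with a log2 ratio of -0.24 (-0.34 to -0.15). In these cells the pan-stromal list was lower in Bbs8 KO as well (66380 and 84210 CPM).

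Among WNT ligands, Wnt5a, a non-canonical ligand, was higher at 1.74 (0.73 to 3.72; 54 and 5 UMIs), and Wnt2, the most abundant, was at 0.29 (-0.37 to 1.03). Of 4 WNT receptors Fzd1 was higher at 0.63 (-0.04 to 1.46) and the co-receptor Lrp6 lower at -0.88 (-1.32 to -0.48; 136 and 255 CPM). None of the 7 WNT transducers passed, with Ctnnb1, which encodes beta-catenin, at 0.34 (-0.05 to 0.76). The WNT targets Lef1 and Tcf7 were higher, at 1.52 (0.48 to 3.49) and 3.23 (2.00 to 9.86), Tcf7 from 61 UMIs in Bbs8 KO against 1 UMI in Bbs8 WT. All Bbs8 KO sets of Tcf7 lay above its Bbs8 WT sets, beside 5.17% of the 4022 genes, while the sets of Lef1 overlapped. Both genes are also transcription factors of T cells and were among the 10 leading genes of the T cell-like cluster, and the 8 T cell markers were at 659 and 149 CPM in the same stromal cells. No WNT agonist reached 50 UMIs, the highest being Lgr4 with 26 UMIs.

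Of 3 BMP receptors Acvr2a was higher at 1.04 (0.21 to 2.22), while Bmpr2, the most abundant, was at 0.09 (-0.41 to 0.61). Among 4 BMP transducers and targets Smad5 was higher at 1.01 (0.29 to 1.99) and the target Id3 lower at -0.85 (-1.45 to -0.33). No BMP ligand reached 50 UMIs, the highest being Bmp7 with 24 UMIs. Of 2 further TGF-beta receptors Tgfbr1 was lower at -0.78 (-1.61 to -0.07), and of 5 transducers and targets Smad3 and Skil were higher at 1.01 (0.10 to 2.34) and 0.87 (-0.06 to 2.203), with Ski, the most abundant of these, at -0.01 (-0.53 to 0.54). None of 3 ligands and latency proteins passed, with Ltbp4, a binding protein of latent TGF-beta, at -0.44 (-0.83 to -0.06) and highest in P3-like cells at 614 CPM.

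**Figure D5:**
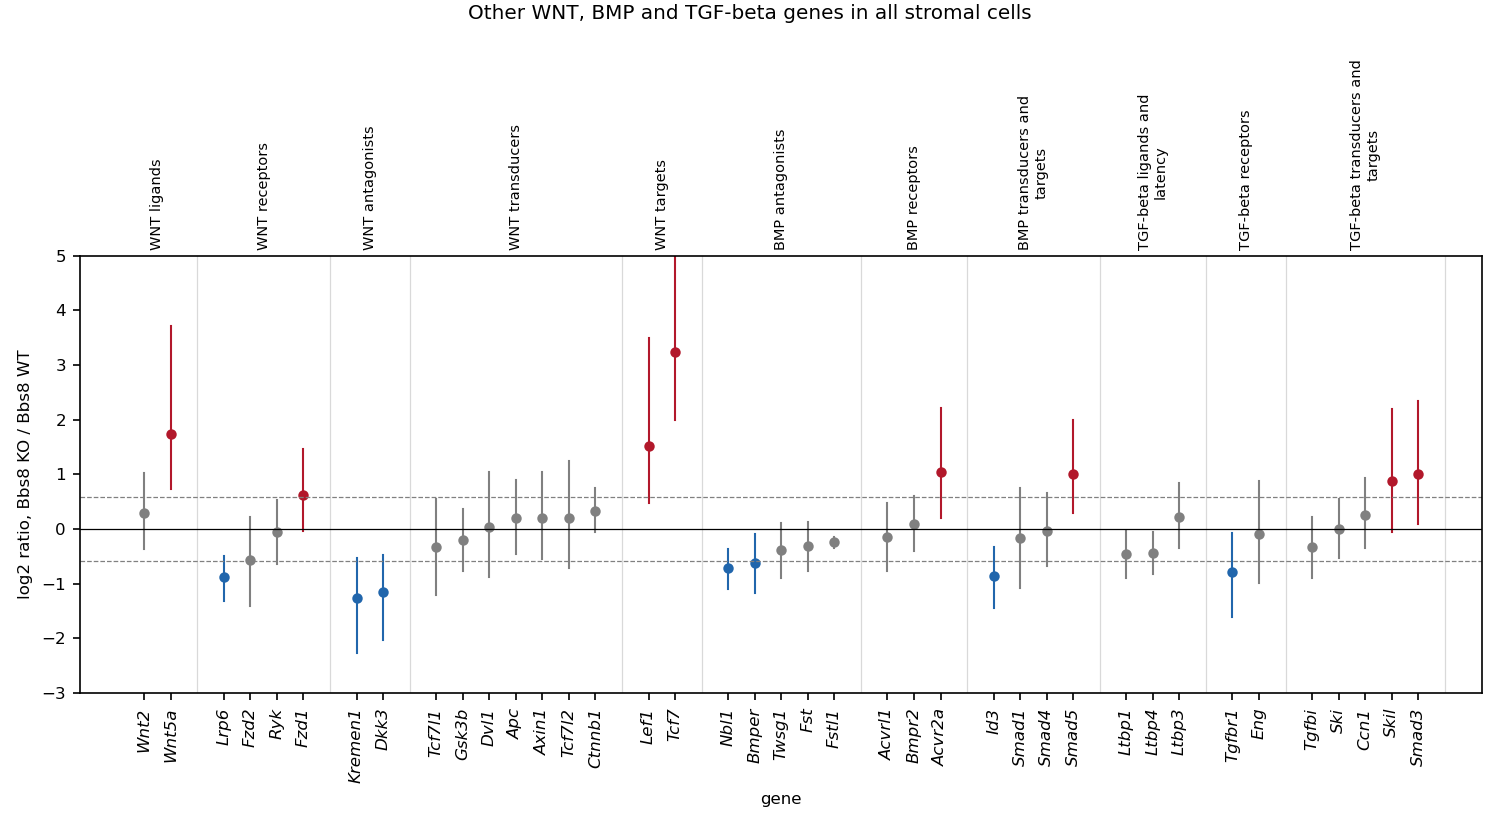
Log2 ratio of Bbs8 KO over Bbs8 WT in all stromal cells (y axis) for the 39 other WNT, BMP and TGF-beta genes with at least 50 UMIs (x axis), grouped by role; bars are exact 95% intervals (that of Tcf7 runs beyond the axis), dashed lines mark 1.5-fold, red is higher and blue lower past that fold. Dkk3 and Kremen1 among WNT antagonists and Nbl1 and Bmper among BMP antagonists are blue, as are Lrp6, Id3 and Tgfbr1. Wnt5a, Fzd1, Lef1, Tcf7, Acvr2a, Smad5, Smad3 and Skil are red.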

How the data were processed

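The values deposited by the authors were UMI counts. Per the methods of the study, reads were demultiplexed with bcl2fastq2 and passed through dropSeqPipe, which runs STAR and the Drop-seq tools (mm10, GENCODE genes). The authors evened out depth by downsampling (before or after this table was not stated) and kept cells with limits on genes and on mitochondrial content. Cells had 101 to 994 genes, 0 cell columns were left unmapped and no further filter was applied. Doublets were kept and no caller was run.

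Anchors between the 10 barcode sets were found with Seurat 5.3.0 under R 4.3.3 (2000 features, 30 dimensions, k.filter of 100, k.weight of 50) and the integrated cells were clustered at resolution 0.8. The 10 genes and the pathway list were left out of the features (23 genes, among them 7 of the 10). Of 19 clusters, 15 had at least 60 cells. A cluster took the name of the marker list with the highest mean log2 fold (20 CPM added) when that mean exceeded 0.5, as did 3 or more markers of 3 or more UMIs, and stromal clusters were divided by P1, P2 and P3 lists. Lists with fewer than 3 markers in the table could not name a cluster, a rule added after the clusters were seen. It gave 1 cluster led by keratin and casein genes the name mammary epithelial-like. The unnamed clusters took 29.2% of the cells in Bbs8 KO, against 15.7% in Bbs8 WT. Names rebuilt from markers may differ from those of the study.

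UMIs were summed per genotype and class as CPM. Levels have exact Poisson, shares exact Clopper-Pearson and ratios exact conditional 95% intervals, which cover counting error only. Shares of cells with a UMI depend on depth and fell on thinning. A count of 0 was given a limit of 3 counts. With 1 mouse per genotype no test was run. The interval procedure was tried on simulated counts drawn from the same counting model that the intervals assume. Such counts hold no spread between cells or animals, so the trial says nothing about it. The number of draws was raised after a first run had fallen short of its limit. Genes were named as all 10 members, the most abundant pathway gene of each role, each pathway gene past 1.5-fold, and the 3 genes most like each member. The members and lists were chosen with earlier results of these data known. Of the pathway list, 2 genes were matched by older symbols. A gene of that list is not reported here and stands in none of its counts. Alternatives used TMM of edgeR 4.0.16 and size factors of DESeq2 1.42.0, for scaling only, other pseudocounts, cell filters, thinning to 200 UMIs, other clusterings, and leaving out sets. Motif searches used RefSeq promoters of GRCm38.p6, the build of mm10. Python 3.11.15 was used.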

Additional observations from a re-analysis of the deposited data

How the results depend on the processing

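No paired analysis was possible because the comparison had 1 mouse per genotype and came from no test. For 62 results, 1099 values were computed with other settings. Of these, 971 lay within the error of counting, the spread of the barcode sets or, for counts, 1.5 times, 120 moved further and 8 changed the sign of a value that was past the fold or had an interval without 0. With sets of 1 number, Gdf10 over all stromal cells was at 0.34 (KO6 and WT4), Gdf10 in P3-like cells at -0.61 (KO5 and WT3) and -0.16 (KO5 and WT4), and Sfrp1 in P2-like cells at 0.93 (KO5 and WT3). Chrdl1 in P3-like cells was at 0.088 (KO5 and WT4), 0.521 (KO6 and WT4), 0.076 in cells with at least 200 genes and 0.233 for cells called by their own markers, and at -2.02 after thinning. The cause was not tested.

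The median over the genes was -0.13 over all stromal cells, and it was -0.48 for KO5 and WT3, 0.25 for KO6 and WT4, and -0.36 to 0.05 without single sets. In P2-like cells it was -0.49. It was -0.22 in cells with at least 200 genes, 0.022 with the members among the integration features, -0.071 at resolution 1.2, 0.074 for cells called by their own markers, -0.12 for KO6 and WT4, -0.78 for the genes that reached 50 UMIs, and -0.59 to -0.11 without single sets. In P1-like cells, at -0.07, the value was 0.76 for the genes that reached 50 UMIs.

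The 1 gene past the fold and higher over all stromal cells became 0 by TMM, DESeq2 size factors, a pseudocount of 20 CPM, thinning, members among the features, the mean of the sets, KO5 and WT3 or KO6 and WT3, 2 for KO5 and WT4 or KO6 and WT4, and 0 to 1 without single sets. The 3 lower genes became 1 with a pseudocount of 20 CPM, at least 200 genes per cell, resolution 1.2, no integration or cells called by markers, and 1 to 3 without single sets. In P2-like cells the count of 0 higher became 1 without integration, for cells called by markers and in each of the 4 comparisons by number. In P3-like cells the 1 higher gene became 2 by TMM, thinning, members among the features, resolution 1.2 or no integration, 3 with at least 200 genes per cell or for KO6 and WT4, 0 for KO5 and WT3, and 0 to 3 without single sets. The 2 lower genes there became 1 by TMM, a pseudocount of 20 CPM, at least 200 genes per cell, resolution 1.2, the mean of the sets, KO6 and WT3 or KO6 and WT4, 0 with members among the features, no integration or cells called by markers, 4 for KO5 and WT3, and 1 to 2 without single sets.

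Past the fold, higher genes made up 64.4% of the calls among all genes of stromal cells by CPM and 42.1% by TMM, and in P2-like cells 56.4% and 40.6%. The subclass with the highest level changed for 2 genes on thinning (Sfrp4 to P1-like, Tgfbr3 to P3-like) and for 2 genes in cells called by their own markers (Fzd4 to P2-like, Bmpr1a to P1-like). Depth limits P1- and P3-like cells, where 5 of the 10 genes each reached 50 UMIs.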
